A study of Mus musculus with 4 samples.

Results

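Myog-positive committed myoblasts were the 130 barcodes, of 31077 kept and 33554 deposited, that held at least 1 raw UMI (unique molecular identifier, 1 counted transcript) of Myog and at least 1 of Des, and none of Pdgfra, Cdh5 or Ptprc. A kept barcode had at least 500 UMIs, at least 300 detected genes and at most 15% of its UMIs from mitochondrial (mt-) genes. The cells were chosen by the measured UMI counts of those 5 genes, so the levels of these genes in the chosen cells are a description and carry no test. Myog encodes myogenin, the transcription factor of terminal myogenic differentiation, and Des encodes desmin, the intermediate filament of muscle. Pdgfra, Cdh5 and Ptprc mark fibro-adipogenic cells, endothelial cells and leukocytes.

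In adult muscle, damage activates Pax7-positive muscle stem cells (satellite cells), which enter the cell cycle as myoblasts. A part of them then switches on myogenin, leaves the cell cycle, makes the first contractile proteins and fuses with other myoblasts or with damaged fibres. Myogenin-positive cells are therefore a short-lived, mononuclear stage between the stem cell and the fibre, and they are frequent where fibres break down and rebuild, as in dystrophin deficiency.

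The cells came from single-cell suspensions of mononuclear cells of mouse skeletal muscle, profiled by droplet 3′ RNA sequencing (10x Genomics). The 4 groups were quadriceps and diaphragm of mdx5cv mice, which carry a mutation of the dystrophin gene, and of mdx5cv/Ccr2-/- mice, which carry the same mutation and also lack CCR2, the chemokine receptor that brings monocytes out of the marrow. All mice were 14 weeks old. Every group, the controls included, was therefore dystrophic. Each group had 1 library and the number of animals behind a library was not given in the sources used here, so no comparison of genotypes or muscles has a replicate check. Intervals below are 95% intervals, exact Clopper-Pearson for shares and exact Poisson or conditional binomial for counts and ratios, and they cover counting error only. Where 4 values follow each other, the quadriceps comes before the diaphragm and, within each muscle, mdx5cv comes before mdx5cv/Ccr2-/-.

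The libraries held between 56399477 and 92189580 UMIs. Ccr2, the deleted gene, was at 247.9, 15.3, 131.6 and 8.85 CPM (counts scaled to 1e+06 UMIs, summed over cells) over all kept barcodes, lower in both libraries labelled mdx5cv/Ccr2-/-. In the Myog-positive cells themselves it gave 1 UMI in the mdx5cv quadriceps and 0 in the other libraries. Over all pairs of libraries 93 barcodes were shared, and 0 of them were Myog-positive cells. A doublet score marked 3 of the 130 cells.

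The 130 cells were 13, 47, 57 and 13 in the 4 libraries. In the quadriceps they made up 0.248% (0.132 to 0.424) of the kept barcodes of mdx5cv mice and 0.690% (0.508 to 0.917) of those of mdx5cv/Ccr2-/- mice. The ratio of these shares was 2.78 (1.48 to 5.60). The diaphragm had 0.453% (0.343 to 0.587) with Ccr2 intact and 0.202% (0.107 to 0.345) without it, and this ratio was 0.445 (0.224 to 0.823). The share was thus above that of the mdx5cv library in the quadriceps and below it in the diaphragm, and the difference between the muscles was not tested. Diaphragm against quadriceps gave ratios of 1.83 (0.987 to 3.64) in mdx5cv and 0.292 (0.145 to 0.549) in mdx5cv/Ccr2-/- mice.

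The stem cells that precede this stage give a second denominator. Pax7-positive cells without a Myog, Pdgfra, Cdh5 or Ptprc UMI, here called Pax7-positive cells, numbered 129, 240, 206 and 99. Of both classes together, the Myog-positive cells were 9.16%, 16.4%, 21.7% and 11.6%. The genotype ratio of this share was 1.79 (0.952 to 3.60) in the quadriceps, an interval that includes 1, and 0.536 (0.269 to 0.990) in the diaphragm. Myog-positive cells were read more deeply, with median UMIs of 17885, 14641, 12526 and 17474 against 6436, 5672, 5648 and 6629 in Pax7-positive cells. With every cell thinned to 2000 UMIs, the share of Myog-positive cells among kept barcodes was 0.130%, 0.299%, 0.313% and 0.0661%. The genotype ratio was then 2.30 (0.876 to 7.09) for quadriceps and 0.211 (0.0546 to 0.589) for diaphragm libraries.

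**Figure D1:**
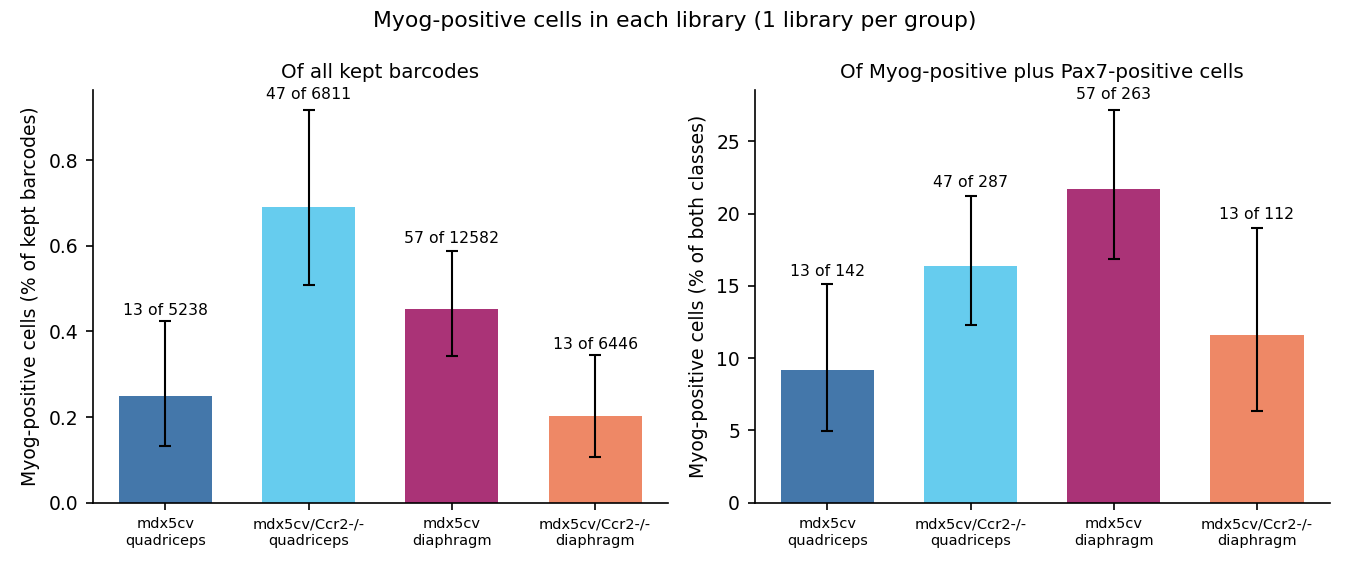
Share of Myog-positive cells in each of the 4 libraries, among all kept barcodes (left) and among Myog-positive plus Pax7-positive cells (right), in percent. Bars are the shares, whiskers the exact Clopper-Pearson intervals and labels the cell counts. Among kept barcodes the share was 0.248% and 0.690% in the quadriceps libraries and 0.453% and 0.202% in the diaphragm libraries.

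The 2 markers of the label that the rule did not use bear on what these cells are. Myod1, the determination factor that acts upstream of Myog, was at 461.6, 471.8, 489.2 and 382.0 CPM in Myog-positive cells and at 67.5, 72.7, 49.1 and 92.0 CPM in Pax7-positive cells. Chrna1, the alpha subunit of the muscle acetylcholine receptor, was at 563.8, 561.4, 449.4 and 248.8 CPM against 138.3, 170.4, 113.9 and 112.0 CPM. Both genes were higher in Myog-positive cells in each of the 4 libraries. So were 854 of the 997 genes called higher in the test below, of 7972 tested. Myod1 was found in 84.6% and Chrna1 in 86.2% of the 130 cells. In Pdgfra-positive cells, whose median depths were between 6831 and 14346 UMIs, they were found in 0.306% and 0.391%. Those cells were chosen without a Myog, Cdh5 or Ptprc UMI, so these shares are a background and not a measure of free RNA. Within the rule, Myog itself was at 1215, 2573, 2093 and 1062 CPM and Des at 1154, 850.0, 869.4 and 462.0 CPM.

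The rule had cells close to its edge. Of the 400 kept barcodes with a Myog UMI, 205 had no Des and at least 1 UMI of Pdgfra, Cdh5 or Ptprc, with a median of 1 Myog UMI and Myod1 in 0.976% of them. Another 39 had Des together with a marker of another cell type, of which 12 were marked as doublets, and 26 had neither Des nor such a marker. Inside the rule, the median was 17 Myog UMIs and the highest 241. The 100 cells with at least 3 Myog UMIs had Myod1 in 96.0% and Chrna1 in 94.0%, while the 24 cells with exactly 1 Myog UMI had them in 50% and 58.3%.

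Marker genes of other cell types were summed over each list, leaving out the rule's genes. The 11 fibroblast genes came to between 850.1 and 2186 CPM in Myog-positive cells and between 2372 and 4076 CPM in Pax7-positive cells. The 11 endothelial genes came to between 39.98 and 93.5 CPM, the 13 immune genes to between 39.98 and 76.0 CPM, and the 8 glial genes to at most 10.4 CPM. The 12 pericyte and smooth muscle genes came to between 1039 and 2787 CPM, most of it Acta2, at 1747, 2082, 1865 and 941.7 CPM. Of the 12, the number at 0 was 4 (Rgs5, Kcnj8, Higd1b and Vtn), 4 (Higd1b, Myh11, Cnn1 and Pln), 3 (Kcnj8, Cnn1 and Pln) and 6 (Kcnj8, Higd1b, Vtn, Myh11, Cnn1 and Pln) in the 4 libraries. In the mdx5cv quadriceps Myh11 was at 201.6, Cnn1 at 29.2 and Pln at 26.3 CPM, and 1 cell gave all UMIs of each. The pericyte gene Rgs5 had 0, 1, 59 and 1 UMIs, of which 1 cell gave 98.3% in the mdx5cv diaphragm, and it was at 190.9 CPM in the 24 cells with exactly 1 Myog UMI. Acta2, smooth muscle alpha-actin, was found in 99.0% of the cells with at least 3 Myog UMIs. The part of these sums in the results below was not tested.

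The Myog-positive cells were compared with the Pax7-positive cells of the same library for every gene, by edgeR's quasi-likelihood test on UMIs summed per library and class, with the library as a block. The 6 genes that chose the 2 classes are left out of every count. Of 7972 genes tested, 997 (12.5%) were higher and 1059 (13.3%) lower in Myog-positive cells at a Benjamini-Hochberg adjusted p under 0.05, and the median log2 fold change over all genes was -0.02. Of the calls, 4 of those higher and 294 of those lower passed the filter on low counts (at least 10 UMIs in at least 4 of the 8 sums) through the sums of the higher class alone. Passing in this way depends on the class where a gene is higher and on depth, so these values are a description. The Pax7-positive sums held 1053855 to 2159048 UMIs and the Myog-positive sums 225121 to 881113. The calls rest on the 2 libraries with many cells: without the mdx5cv/Ccr2-/- quadriceps 480 genes were higher and 606 lower, and without the mdx5cv diaphragm 519 and 621.

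The largest differences upward were in fusion and contractile genes. Actc1, cardiac alpha-actin, which is the alpha-actin of embryonic skeletal muscle, was at 43.8, 660.2, 1284 and 453.1 CPM in Myog-positive cells and at no more than 1.39 CPM in any library of Pax7-positive cells. Its log2 fold change was 9.47 ± 0.29 (SE). Mymx, which encodes the fusion micropeptide myomixer (myomerger), was at 449.9, 543.3, 551.6 and 115.5 CPM against at most 2.78 CPM (log2 fold change 8.19 ± 0.27). Mymk, which encodes myomaker, the other membrane protein needed for fusion, was at 81.8, 179.4, 262.2 and 66.6 CPM against at most 1.82 CPM (7.43 ± 0.37). All 3 were highest in the mdx5cv diaphragm and second highest in the mdx5cv/Ccr2-/- quadriceps. These 3 genes and Gm28653 are the 4 that passed the filter through the Myog-positive sums alone, so no test is given for them.

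The remaining genes named by the rule for the largest changes upward were Acta1 (skeletal alpha-actin, log2 fold change 6.27), Gm28653 (5.93), Tnni1 (slow troponin I, 4.83), Myl1 (a fast myosin light chain, 4.48), Tnnt2 (cardiac troponin T, 4.45), Myl4 (embryonic myosin light chain, 4.11), 5430431A17Rik (4.07), Synpo2l (3.89) and Arpp21 (3.75). All were higher in each of the 4 libraries, but the mdx5cv/Ccr2-/- diaphragm adds little for several of them. There Tnni1 had 1 UMI, at 4.442 CPM against 3.796 CPM in Pax7-positive cells. In that library 1 cell gave 53.85% to 90.48% of the UMIs of Acta1, Myl1, Tnnt2, Myl4 and Arpp21. For Gm28653, 5430431A17Rik and Synpo2l the largest cell gave 20% to 37.5%. Gm28653 is a long noncoding RNA gene on chromosome 1 (20669882 to 20684298, plus strand, GRCm38), and in the GENCODE annotation it overlaps the microRNA genes Mir206 and Mir133b on the same strand. It was at 91.8 CPM on average in Myog-positive cells. The counts are of this RNA and not of the mature microRNAs. The actin genes Actc1, Acta1 and Acta2 have near-identical coding sequences, so reads from there could be split among them.

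Of the 12 genes with the largest changes downward, 11 are given here, led by Hsd11b1 (the glucocorticoid-activating dehydrogenase, log2 fold change -5.65 ± 0.53), Chodl (-4.71 ± 0.24) and Prelp (-4.03 ± 0.32). Hsd11b1 gave at most 2.27 CPM in any library of Myog-positive cells. Chodl, which encodes a C-type lectin, was at 23.4, 14.3, 12.5 and 48.9 CPM against 682.4, 650.7, 363.5 and 493.4 CPM. The others were Bmp4 (-3.95), Bmp6 (-3.92), Fosb (-3.73), Myf5 (-3.64), Cep128 (-3.64), Crybg1 (-3.59), Gpx3 (-3.57) and F2r (-3.44, the thrombin receptor). Hsd11b1, Prelp, Bmp4, Bmp6, Crybg1 and F2r passed the filter through the Pax7-positive sums alone. Arpp21, Myl4, Prelp, Bmp4, Bmp6 and Crybg1 have an annotated gene on the opposite strand, whose reads could not be told apart if counting ignored strand.

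**Figure D2:**
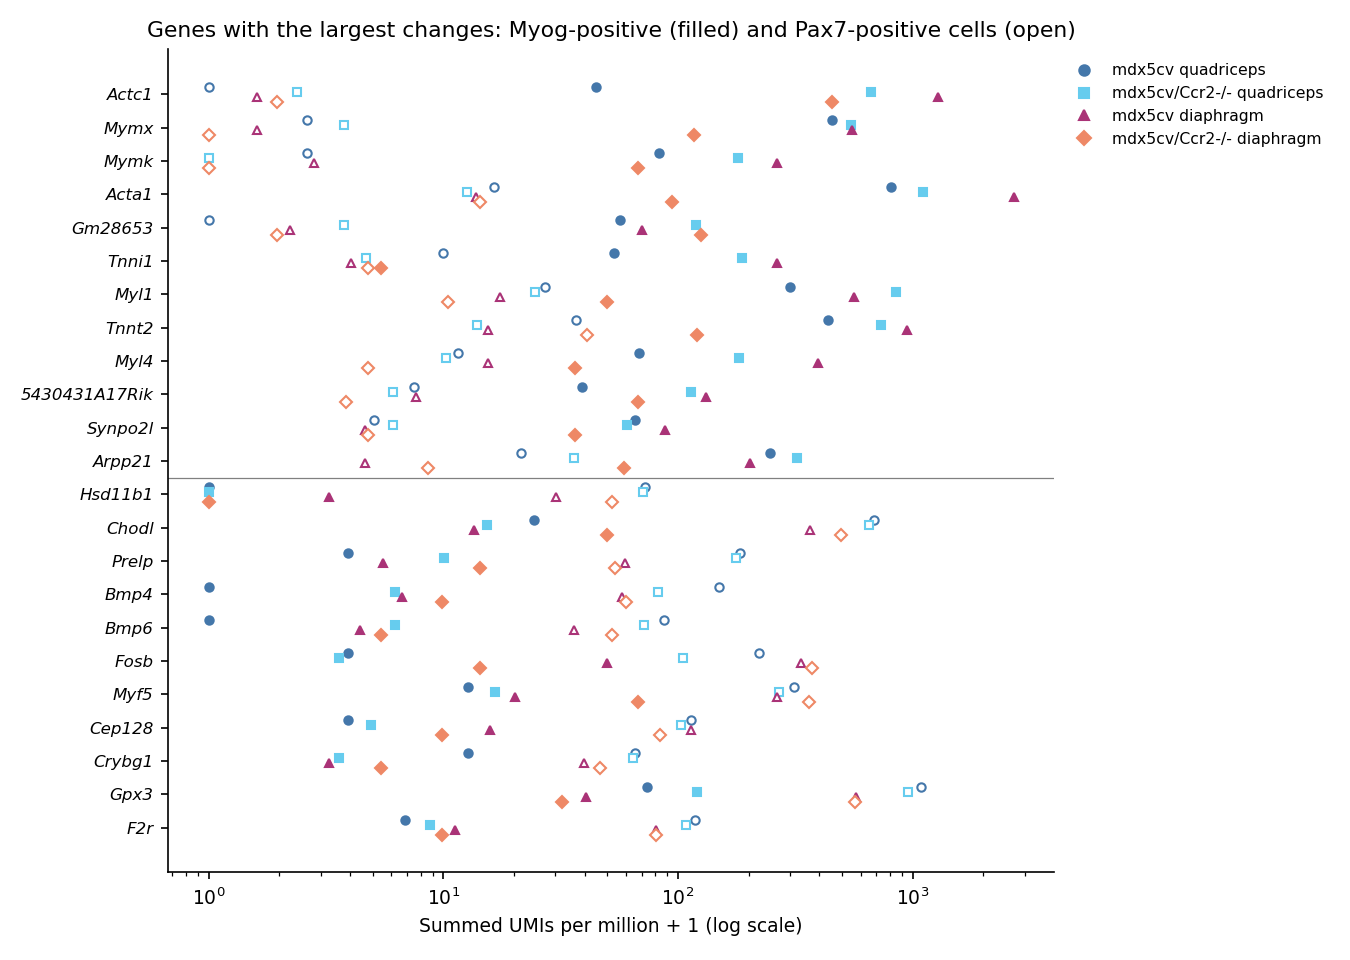
CPM plus 1 (log scale) of the 12 genes with the largest increase (upper block) and 11 of the 12 with the largest decrease (lower block) between Pax7-positive cells (open symbols) and Myog-positive cells (filled symbols), 1 symbol per library. For Actc1, Mymx and Mymk every filled symbol lies to the right of every open one, and for Chodl the order is reversed. The genes were chosen by the size of this change.

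The list of myogenic transcription factors had 23 genes beside Pax7 and Myog, of which 22 were tested. Of these, 10 were higher, 9 lower and 3 did not pass the test. Beside Myod1 (log2 fold change 2.74 ± 0.17, adjusted p = 3.7e-09), the genes that were higher included the MADS-box factors that act with myogenin, Mef2a (2.16), Mef2c (3.07) and Mef2d (1.39), and Zbtb18 (2.60), a repressor. Mef2c was at 81.8, 107.9, 183.9 and 26.7 CPM against 7.32, 20.4, 10.9 and 8.54 CPM. Hes6, which antagonises Hes1, was higher (1.76 ± 0.17) and Hes1 itself lower (-1.99 ± 0.19). Id1 (-1.33) and Id3 (-1.82 ± 0.13), which bind the partners of the myogenic factors and block them, were lower, as were Myf5, Pax3 (-1.65), Msc (-2.23), Hey1 (-2.02) and Heyl (-2.05). Id3 was at 248.3, 162.5, 298.5 and 271.0 CPM against 913.4, 600.3, 1108 and 842.6 CPM.

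Stem cell and Notch genes pointed downward: 1 of 24 tested was higher, 17 were lower and 6 did not pass, with a median log2 fold change of -1.22. Of the 17, Calcr and Jag1 passed the filter through the Pax7-positive sums alone. Calcr, the calcitonin receptor of quiescent stem cells, was found in the mdx5cv/Ccr2-/- quadriceps library alone, at 2.60 CPM, against 27.9 to 51.2 CPM in Pax7-positive cells (-5.17 ± 0.54). Notch3 was at 14.6, 10.4, 21.6 and 13.3 CPM against 133.8 to 201.5 CPM (-3.44 ± 0.24). Spry1 (-1.78), Cd34 (-2.39), Vcam1 (-1.42), Jag1 (-2.19) and Tgfbr3 (-2.93) were also lower. The 1 gene that was higher was Dll1, a Notch ligand, at 37.98, 74.1, 57.9 and 71.1 CPM against 3.25, 10.2, 10.3 and 17.1 CPM (2.65 ± 0.26, adjusted p = 6.4e-07). The receptor Notch1 did not pass the test (-0.14 ± 0.21), nor did Itga7 (0.22 ± 0.17), Megf10 or Sox4.

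The list named embryonic and neonatal sarcomere genes, below the sarcomere list, had 28 genes, of which 13 passed the filter on low counts. It also holds genes not limited to those stages, such as Acta1, Tnnc2, Ttn and Neb, so it is a general sarcomere list. A gene could pass through the Myog-positive sums alone, so that all 13 were called higher is a description. Their log2 fold changes ran from 0.55 (Cryab) to 9.47 (Actc1). Acta1 was at 803.3, 1107, 2692 and 93.3 CPM against 11.6 to 15.5 CPM in Pax7-positive cells. Ttn, titin, was at 1350, 2884, 3802 and 906.2 CPM against 269.5 to 440.0 CPM (2.54 ± 0.23). Neb, nebulin, was at 227.9, 538.1, 722.9 and 199.9 CPM against 50.3 to 69.1 CPM (2.72 ± 0.24). Of the 15 that did not pass, Myh3, embryonic myosin heavy chain, was at 14.6, 66.3, 290.5 and 4.44 CPM and Klhl41 at 52.6, 109.2, 247.4 and 26.7 CPM. Neonatal Myh8 reached 7.94 CPM in the mdx5cv diaphragm at most.

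Adult fibre genes were 24, of which 9 passed the same filter, so that the 8 called higher are likewise a description, although 0 of the 8 passed through the Myog-positive sums alone. Their log2 fold changes included those of Mylpf (fast regulatory light chain, 4.07 ± 0.64), Tnni2 (3.87), Atp2a1 (the fast calcium pump, 3.12) and Ryr1 (the calcium release channel, 2.19). Mylpf was at 698.2, 1220 and 1877 CPM in the first 3 libraries and at 0 in the mdx5cv/Ccr2-/- diaphragm. Creatine kinase Ckm was at 0, 175.5, 109.0 and 4.44 CPM and Pvalb, parvalbumin, at 0, 124.8, 0 and 4.44 CPM. In the mdx5cv/Ccr2-/- quadriceps a single cell gave 55.6% of the Ckm UMIs, and a single cell gave 40.6% of the Pvalb UMIs.

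Genes of the acetylcholine receptor and the postsynaptic membrane were higher in part. Chrna1 (1.77 ± 0.15, adjusted p = 1.4e-07), the delta subunit Chrnd (2.25 ± 0.35), the gamma subunit of the fetal receptor Chrng (3.25 ± 0.28, adjusted p = 1.5e-07) and the intermediate filament gene Nes (1.70 ± 0.24) were higher, Mpp7 (-1.10) was lower but passed the filter through the Pax7-positive sums alone, and 4 of 9 tested did not pass, Musk and Rapsn among them. Chrng was at 108.1, 85.8, 90.8 and 26.7 CPM against 6.51 to 9.69 CPM. Chrne, the subunit of the adult receptor, was at 0 in all 4 libraries. Dok7, an adaptor of the kinase MuSK that was too low for the test, was at 37.98, 37.7, 45.4 and 31.1 CPM against at most 2.42 CPM.

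E-boxes are the DNA elements that dimers of MyoD or myogenin with E proteins bind. The letters CAGCTG, which read the same on both strands, were searched in the 250 bases before the start site in the RefSeq promoter table (GRCm38.p6). They were found in 4271 of all 32851 promoters (13%), and at least 2 times in 1.26%. Of the 12 genes named as higher 9 were in the table, and 6 of these (Acta1, Tnni1, Myl1, Tnnt2, Synpo2l and Arpp21) had a match in at least 1 promoter. Of the 12 with the largest changes downward 11 were in the table and 0 had one. Over the whole lists a match was found for 8 of 23 sarcomere genes in the table (34.8%), 4 of 9 receptor and postsynaptic genes (44.4%) and 3 of 17 fusion and adhesion genes (17.65%). A gene can have several promoters in the table and was counted with a match in any of them. These shares per gene are therefore not on the same footing as the 13% of promoters. A match is a description of the letters and not a binding site. Chrna1, Chrng and Tnnt2 each had 2 matches in 1 window. They are shown 5′ to 3′ on the gene's strand with CAGCTG in capitals, because they represent the receptor and the sarcomere groups, and were chosen after their values were seen. The windows are chr2:73580339-73580588 (minus strand) for Chrna1, chr1:87205561-87205810 (plus strand) for Chrng and chr1:135836084-135836333 (plus strand) for Tnnt2.
Chrna1: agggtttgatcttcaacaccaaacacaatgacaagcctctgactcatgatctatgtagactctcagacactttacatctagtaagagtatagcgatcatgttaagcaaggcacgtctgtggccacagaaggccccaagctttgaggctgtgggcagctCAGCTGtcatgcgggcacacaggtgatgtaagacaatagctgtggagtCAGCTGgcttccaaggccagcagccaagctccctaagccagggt
Chrng: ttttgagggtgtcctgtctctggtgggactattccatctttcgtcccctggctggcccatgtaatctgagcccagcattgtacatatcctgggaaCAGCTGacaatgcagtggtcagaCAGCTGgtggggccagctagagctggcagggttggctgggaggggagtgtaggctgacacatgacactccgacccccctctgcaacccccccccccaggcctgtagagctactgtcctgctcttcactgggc
Tnnt2: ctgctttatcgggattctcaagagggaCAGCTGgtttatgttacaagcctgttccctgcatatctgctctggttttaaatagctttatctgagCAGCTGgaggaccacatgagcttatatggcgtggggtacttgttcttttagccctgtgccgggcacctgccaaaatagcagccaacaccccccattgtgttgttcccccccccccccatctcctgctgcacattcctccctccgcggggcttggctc
In Chrna1 the matches begin 92 and 44 bases before the start site, in Chrng 155 and 132 bases, and in Tnnt2 223 and 157 bases. The window of Myog itself, chr1:134289754-134290003 (plus strand), has 0 matches to CAGCTG and 2 to the wider form CANNTG, which 66.2% of all promoters hold.

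Fusion and adhesion genes, Mymk and Mymx included, were mixed: of 18 tested, 5 were higher, 5 lower and 8 did not pass. Of the 5 higher, Mymk and Mymx passed the filter through the Myog-positive sums alone, so their calls are a description. Jam3 (1.42 ± 0.18), the membrane-bending Bin1 (1.71 ± 0.15) and Trio (0.97 ± 0.20) were higher. Cdh15, M-cadherin (-0.60 ± 0.14), Cdon (-0.89), Neo1 (-0.78), Kirrel (-1.06) and Itgb1 (-0.40) were lower. Too low for the test, Cav3, caveolin of muscle, was at 14.6, 16.9, 89.7 and 22.2 CPM against at most 2.42 CPM, and Tmem182 at 8.76, 11.7, 34.1 and 13.3 CPM against at most 0.463 CPM.

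Of 16 tested genes of cell cycle exit, 6 were higher, 5 lower and 5 did not pass. Cdkn1c (p57) was the most abundant, at 1902, 2959, 4635 and 2536 CPM against 349.7, 539.6, 1946 and 1481 CPM (1.74 ± 0.21, adjusted p = 4.9e-06). Cdkn1a (p21) was higher (2.09 ± 0.27) at 347.6, 356.1, 557.2 and 93.3 CPM, as was Rb1 (2.14 ± 0.26), while Cdkn1b (p27, -1.18 ± 0.19) and Cdkn2c (-1.16) were lower. Of 21 tested S phase genes, 0 were called in either direction by edgeR and 0 by DESeq2, and 1 had an unadjusted p under 0.05. Of 20 G2 and M phase genes 1 was called, Mki67, which was lower (-1.06 ± 0.24, adjusted p = 3.3e-03).

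Immediate early and dissociation stress genes were lower in 19 of 21 tested and 2 did not pass. The median log2 fold change was -2.31. Of the 19, Egr2 and Nr4a1 passed the filter through the Pax7-positive sums alone. Fos was at 5.84, 120.9, 237.2 and 795.1 CPM against 1399, 921.7, 1855 and 2173 CPM (-2.96 ± 0.39), and Jun at 306.7, 265.1, 557.2 and 581.9 CPM against 1408 to 2163 CPM (-2.13 ± 0.14). The heat shock gene Hspa1a was at 262.9 to 541.9 CPM against 1682 to 2664 CPM. As background, these genes also respond to tissue digestion, whose part in the difference was not tested.

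Signalling genes were mostly lower. Of 23 tested receptors, 13 were lower, 3 of them (Fzd4, Lifr and Osmr) after passing the filter through the Pax7-positive sums alone, and 10 did not pass. Those lower included Egfr (-2.33 ± 0.22), Osmr (-3.53), Igf1r (-1.32) and Fgfr1 (-0.67). Of 21 tested secreted factors 11 were lower, 5 of them (Bmp4, Ccl7, Csf1, Metrnl and Tgfb1) after passing it in the same way, and 1, Mif (0.67 ± 0.13), was higher. Bmp4 was at 0, 5.20, 5.68 and 8.88 CPM against 57.0 to 148.0 CPM. Of 14 tested type I interferon genes 6 were lower and 8 did not pass. Of 12 MHC class I genes 5 were lower and 7 did not pass. Ifih1, Irf9, H2-Q4 and H2-T23 passed the filter through the Pax7-positive sums alone. DESeq2 called 1 interferon gene and 2 MHC class I genes lower. B2m was among the lower, at -0.54 ± 0.18. Imprinted growth genes split, with 3 of 14 higher (Cdkn1c, H19 and Kcnq1ot1) and 7 lower. The lower ones were led by Meg3 (-2.48 ± 0.40) and Plagl1 (-2.37 ± 0.25). Rian, also lower, passed the filter through the Pax7-positive sums alone. Of the dystrophin complex, Dmd (-1.97 ± 0.28) and Utrn (-0.75 ± 0.17) were lower and Sntb1 (2.39), Dtna (1.85) and Sgcb (0.90) higher, 10 of 17 not passing. The metabolic list had 5 of 12 higher and 1 lower, with Ckb (1.10 ± 0.17), Gamt (1.21 ± 0.17) and Ldha (0.66 ± 0.15) among those higher.

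Markers assigned to other cell types also moved with the class. Fibroblast genes were lower in 8 of 9 tested, for example Col3a1 (-1.74 ± 0.16). Acta2 was higher (2.24 ± 0.18, adjusted p = 4.2e-08), with 203.3 to 535.0 CPM in Pax7-positive cells. Scx, scleraxis, a factor best known from tendon, was higher (2.49 ± 0.22, adjusted p = 1.8e-07). It was at 166.5, 83.2, 133.9 and 57.8 CPM against 17.1 to 20.6 CPM. The 8 tenocyte genes, Scx included, came to 169.4, 104.0, 282.6 and 71.1 CPM. In Pax7-positive cells they came to 45.55, 189.0, 123.6 and 26.6 CPM. Of the 8 genes, 6, 2, 3 and 5 were at 0 in the 4 libraries of Myog-positive cells. The tendon gene Tnmd was at 0 in 2 of these libraries.

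The 130 cells were not uniform. A fusion gene, Mymk or Mymx, was found in 63.1% (54.2 to 71.4) of them, against 1.63% of Pax7-positive and 0.229% of Pdgfra-positive cells. Thinned to 2000 UMIs, which left 120, 614 and 11551 cells, the shares were 48.3%, 0 of 614 cells (which allows a share of up to 0.489%, 3 counts of the total) and 0.0433%. By library it was found in 10 of 13, 29 of 47, 37 of 57 and 6 of 13 cells, and after thinning in 41.7%, 54.8%, 52.8% and 15.4%, with overlapping intervals. Thinned shares of other genes were 48.3% for Myod1, 47.5% for Chrna1, 40% for Acta1, 37.5% for Tnnt2, 29.2% for Actc1, 14.2% for Chrng and 9.17% for Myh3. Myf5 was found in 5.00% of thinned Myog-positive cells against 44.6% of Pax7-positive cells.

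**Figure D3:**
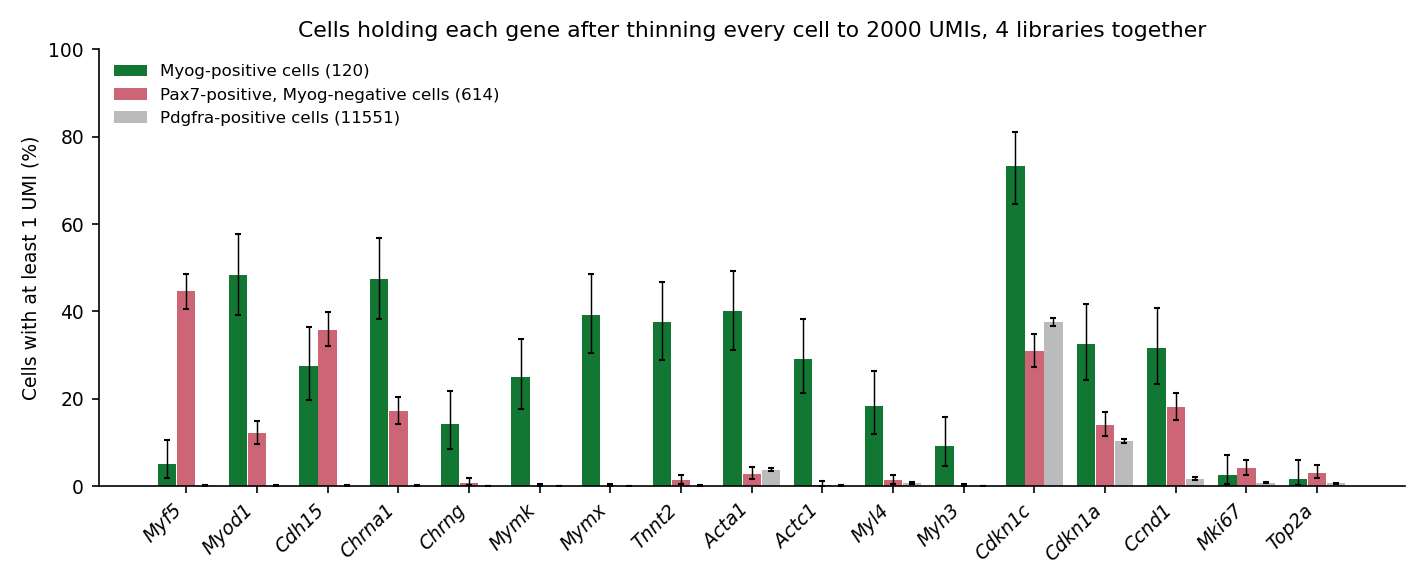
Percent of cells with at least 1 UMI of each gene after thinning every cell to 2000 UMIs, for 120 Myog-positive, 614 Pax7-positive and 11551 Pdgfra-positive cells of the 4 libraries together, with exact Clopper-Pearson intervals. Mymk, Mymx and Myh3 were found in Myog-positive cells and in 0 thinned Pax7-positive cells, while Myf5 was found in 5.00% against 44.6%.

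The cells were also split by 2 signs that the rule did not use, a fusion gene and a Pax7 UMI. There were 65 cells with a fusion gene and no Pax7, 17 with both, 18 with Pax7 and no fusion gene, and 30 with none of the 3 genes. Median depths were 17885, 23922, 11350 and 6908 UMIs, so that the absence of a gene is less informative in the last 2 sets. In the same order, Myog was at 3026, 968.3, 513.9 and 869.2 CPM, Myod1 at 522.8, 467.5, 371.2 and 312.4 CPM and Chrna1 at 609.8, 459.2, 217.7 and 236.3 CPM. All 3 were highest in cells with a fusion gene and no Pax7.

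Actc1 ran from 1409 CPM in cells with a fusion gene alone to 45.7 CPM with both signs and 7.14 CPM with Pax7 alone. Tnnt2 ran from 1198 to 149.6 and 82.1 CPM, and Cdkn1c from 4688 to 1893 and 1388 CPM. In the opposite direction, Hes1 was at 14.1, 54.0 and 164.2 CPM and Id3 at 125.1, 255.6 and 528.2 CPM. Acta1 broke this order, at 2503 CPM in the 30 cells with none of the 3 genes. There, single cells with 1 Myog UMI and 0 UMIs of Myod1, Chrna1, Mymk and Mymx held 259, 202, 75, 25 and 16 of the 625 Acta1 UMIs. The cells with 259 and 202 had 2 Ttn UMIs each. The cell with 259 was in the mdx5cv diaphragm and the others in the mdx5cv/Ccr2-/- quadriceps, whose Myog-positive cells had 852 Acta1 UMIs together. Whether these cells are committed myoblasts was not tested.

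**Figure D4:**
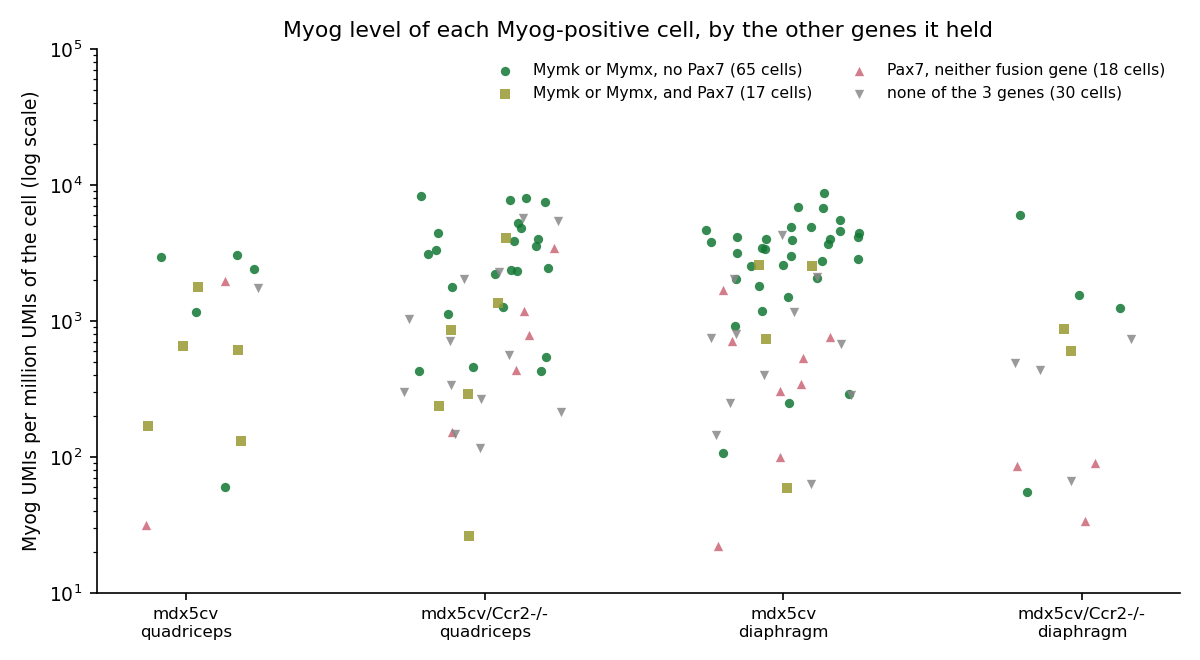
Myog CPM of the cell (log scale) for each of the 130 Myog-positive cells by library, with symbols for the 4 combinations of a fusion gene (Mymk or Mymx) and Pax7. Cells with a fusion gene and no Pax7 (65) lie mostly in the upper range, and those with Pax7 and no fusion gene (18) are more often in the lower range.

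At least 3 of the G2 and M phase genes were found in 24 of the 130 cells, whose median depth of 29222 UMIs was above the 11793 of the other 106. Mki67 was at 135.9 CPM and Top2a at 113.1 CPM in these cells. They held Myog at 1085 CPM against 2490 CPM, Actc1 at 122.5 against 1129 CPM, Mymk at 68.6 against 244.7 CPM and Pax7 in 50% against 21.7% of cells. Thinned to 2000 UMIs, Mki67 or Top2a was found in 3.33% (0.916 to 8.31) of Myog-positive cells, 5.54% (3.87 to 7.65) of Pax7-positive cells and 1.12% of Pdgfra-positive cells, so that the first interval includes the other values.

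The genotypes and muscles were compared within the Myog-positive cells as ratios of CPM, with 1 library a group and therefore with no test. A gene was measured if it had at least 40 UMIs over the 130 cells and was found in at least 10% of the cells of 1 library, which held for 5589 genes, and a log2 ratio is on the log2(CPM + 5) scale. With Ccr2 lost, 288 genes (5.15%) were at least 2-fold higher and 115 (2.06%) at least 2-fold lower in the quadriceps. In the diaphragm the numbers were 229 (4.1%) and 482 (8.62%). In both muscles 28 genes (0.501%) were past 2-fold higher and 27 (0.483%) past 2-fold lower. Diaphragm against quadriceps, 379 genes (6.78%) were higher and 147 (2.63%) lower in mdx5cv, 228 (4.08%) and 455 (8.14%) in mdx5cv/Ccr2-/- mice, and 46 (0.823%) and 22 (0.394%) in both genotypes. Past 2-fold in opposite directions were 59 genes (1.06%) by genotype in the 2 muscles and 75 (1.34%) by muscle in the 2 genotypes. Each contrast includes a library with 13 cells, and the 2 contrasts of one kind share no library.

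Contractile genes differed in direction between the muscles. With Ccr2 lost, 11 of the 20 measured genes of the sarcomere list were past 2-fold higher in the quadriceps and 0 lower. Their median log2 ratio was 1.16. In the diaphragm 0 of the 20 were higher and 17 lower, with a median of -2.96. Over all measured genes the medians were 0.05 and -0.05, and the same 20 genes in Pax7-positive cells had medians of -0.12 and -0.04. Part of the 20 were near 0 in Pax7-positive cells, such as Actc1 (at most 1.39 CPM) and Tnni1 (3.03 to 8.95 CPM). With 5 CPM added, ratios of such genes stay near 0, so the medians of Pax7-positive cells cannot show whether the genotypes differ there. In Myog-positive cells, requiring 2 Myog UMIs gave medians of 0.86 and -2.35. A stricter exclusion of other cell types (also no UMI of Pecam1, Csf1r, Lum, Rgs5 or Myh11) gave 1.18 and -1.78. Acta1 went from 2372 UMIs in 57 cells of the mdx5cv diaphragm to 21 UMIs in 13 cells with Ccr2 lost, a ratio of CPM of 0.0347 (0.0214 to 0.0531). Tnnc2, fast troponin C, went from 533.4 CPM to 0 UMIs, and Mylpf from 1877 CPM to 0 UMIs. The log2 ratio of Actc1 in the diaphragm was -1.49, and -0.048 under the stricter exclusion. In the quadriceps Actc1 had a log2 ratio of 3.77 and Ttn one of 1.09, and means of per-cell CPM gave 1.38 and 0.84. The quadriceps log2 ratios of Acta1, Tnnc2 and Mylpf were 0.46, 2.74 and 0.80, and turned to -0.30, -1.81 and -0.80 with at least 2 Myog UMIs.

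In the diaphragm a fusion gene was found in 6 of 13 cells with Ccr2 lost and in 37 of 57 without the loss. Within the cells that held one, Acta1 was at 974.3, 813.9, 3285 and 159.2 CPM, Tnnt2 at 457.1, 863.7, 1278 and 204.7 CPM and Ttn at 1573, 3196, 4968 and 1069 CPM. The mdx5cv/Ccr2-/- diaphragm was the lowest of the 4 for each. The part of the share of cells with a fusion gene in the ratios was not tested. The 6 cells behind that value are few, and 1 cell gave 90.5% of the Acta1 UMIs and 94.1% of the Actc1 UMIs of the whole library's 13 cells.

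Among the genes past 2-fold higher with Ccr2 lost in both muscles, those named by the size rule were Cdk1, Alad, Cebpd, Fos, Socs3, Fxyd6, Cenpf and Pfn2. Most were near the floor in the 13 cells of the mdx5cv quadriceps. There Cdk1 and Cenpf had 0 UMIs, Fos and Pfn2 2, Alad, Cebpd and Socs3 3, and Fxyd6 9. The quadriceps interval of the Pfn2 ratio, 0.959 to 35.6, includes 1. Alad, an enzyme of haem synthesis, was at 8.76 and 44.2 CPM in the quadriceps and at 15.9 and 66.6 CPM in the diaphragm, with ratios of 5.04 (1.59 to 25.7) and 4.19 (1.89 to 9.38), and Pax7-positive cells gave log2 ratios of 0.90 and 1.36 in the same direction. Fxyd6, a regulator of the sodium pump, was at 26.3, 88.4, 52.2 and 168.8 CPM and was found in 84.6% of the 13 cells of the mdx5cv/Ccr2-/- diaphragm. Cebpd was at 8.76, 41.6, 44.3 and 173.2 CPM. Socs3, an inhibitor of cytokine signalling, was at 8.76, 41.6, 25.0 and 88.8 CPM, against 200.6 to 414.7 CPM in Pax7-positive cells. In the mdx5cv/Ccr2-/- diaphragm 1 cell gave 70.0% of the Socs3 UMIs.

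The cycle genes of this set rest on few cells. All 40 Cenpf UMIs of the mdx5cv/Ccr2-/- diaphragm came from 1 of 13 cells, and 1 cell gave 84.0% of its 25 Cdk1 UMIs. With at least 2 Myog UMIs required, the log2 ratio of Cenpf in the diaphragm turned to -3.15, and with a stricter exclusion of other cell types to -3.46. Fos, at 5.84, 120.9, 237.2 and 795.1 CPM, had 64.8% of its UMIs in 1 cell of the mdx5cv/Ccr2-/- diaphragm, and its diaphragm log2 ratio turned from 1.72 to -0.49 under the stricter exclusion.

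The genes past 2-fold lower with Ccr2 lost in both muscles were led by Aspn, Sparcl1, Gal, Igfbp6, Bex1, Jdp2, Myl9 and Mustn1. All were near the floor in the 13 cells of the mdx5cv/Ccr2-/- diaphragm. There Igfbp6 and Mustn1 had 0 UMIs, Aspn, Sparcl1 and Myl9 1, Bex1 and Jdp2 2, and Gal 3. Gal, which encodes the neuropeptide galanin, was at 1899, 493.9, 265.6 and 13.3 CPM, found in 84.6%, 36.2%, 31.6% and 15.4% of cells. Its genotype ratios were 0.260 (0.229 to 0.296) and 0.0502 (0.0103 to 0.149), and Pax7-positive cells had log2 ratios of -0.53 and 0.08. In the mdx5cv quadriceps 1 cell gave 60.2% of the 650 Gal UMIs. Jdp2, a bZIP repressor that promotes muscle differentiation, was at 96.4, 27.3, 89.7 and 8.88 CPM and its largest cell gave 30.3% of UMIs in the mdx5cv quadriceps.

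For the others, 1 cell of the mdx5cv quadriceps gave 91.7% of the Aspn, 88.9% of the Sparcl1, 84.0% of the Bex1, 80.0% of the Myl9, 66.7% of the Mustn1 and 45.5% of the Igfbp6 UMIs. Under the stricter exclusion, the quadriceps log2 ratios of Sparcl1, Bex1 and Mustn1 turned to 0.35, 0.43 and 0.996, and the diaphragm log2 ratio of Aspn to 0.85. The quadriceps log2 ratio of Myl9 turned to 0.47 with at least 2 Myog UMIs and to 0.44 without doublets.

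Between the muscles, the genes past 2-fold higher in the diaphragm in both genotypes were Meis2, Atf3, Fos, Atad2, Cebpd, Cenpf, Cdca7 and Cdk1 by the size rule. In the mdx5cv quadriceps Meis2, Atf3, Atad2 and Cdca7 had 1 UMI each, Fos 2, Cebpd 3, and Cenpf and Cdk1 0. Cdk1, Fos, Cebpd and Cenpf are also in the list by genotype, where the mdx5cv quadriceps is again a denominator. The mdx5cv interval of the Cdk1 ratio begins at 0.767 and so includes 1. Meis2, a homeobox factor, was at 2.92, 0, 101.0 and 71.1 CPM. It was found in 57.9% and 76.9% of the diaphragm cells and in 7.69% and 0% of the quadriceps cells. Its log2 ratios were 3.74 and 3.93, and Pax7-positive cells had 4.49 and 3.9. No single cell gave more than 25.0% of its UMIs in a diaphragm library. Atf3 was at 2.92, 1.30, 48.8 and 35.5 CPM, with log2 ratios of 2.03 and 1.60 in Pax7-positive cells, and 1 cell gave 75.0% of its 8 UMIs in the mdx5cv/Ccr2-/- diaphragm. The mdx5cv/Ccr2-/- log2 ratio of Cenpf turned to -3.27 with at least 2 Myog UMIs and to -3.51 under the stricter exclusion, which also turned that of Cdk1 to -0.083.

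The genes lower in the diaphragm in both genotypes were Gal, Spp1, Cdkn2a, Myl9, Fn1, Col18a1, Vamp5 and Ptp4a3. In the mdx5cv/Ccr2-/- diaphragm Spp1 had 0 UMIs, Myl9 and Ptp4a3 1, Fn1 2, Gal 3, Cdkn2a and Vamp5 5, and Col18a1 9. Cdkn2a, the locus of the cell cycle inhibitors p16 and p19Arf, was at 187.0, 143.0, 17.0 and 22.2 CPM, found in 92.3%, 55.3%, 21.1% and 23.1% of cells. Its diaphragm to quadriceps ratios were 0.0911 (0.0482 to 0.162) and 0.155 (0.0495 to 0.374), and Pax7-positive cells gave log2 ratios of -2.27 and -1.89. Spp1, osteopontin, was at 248.3, 254.7, 37.5 and 0 CPM, with log2 ratios of -1.93 and -3.53 in Pax7-positive cells. In the mdx5cv quadriceps 1 cell gave 70.6% of its 85 UMIs. Col18a1, a basement membrane collagen, was at 175.3, 133.9, 28.4 and 39.98 CPM and was found in 84.6% and 55.3% of quadriceps cells. For Cdkn2a and Col18a1 no cell gave more than 28.0% of the UMIs of a library with at least 9 UMIs.

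Positional genes could be followed at low level only. Hoxc10, a factor of the hindlimb, had 15, 13, 0 and 0 UMIs and Hoxa10 had 3, 12, 0 and 0, both found in the quadriceps libraries and in neither diaphragm library. Hoxc6 was found in all 4, at 14.6, 27.3, 11.4 and 26.7 CPM. Cdkn1c was at 4635 and 2536 CPM in the diaphragm and at 1902 and 2959 CPM in the quadriceps.

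**Figure D5:**
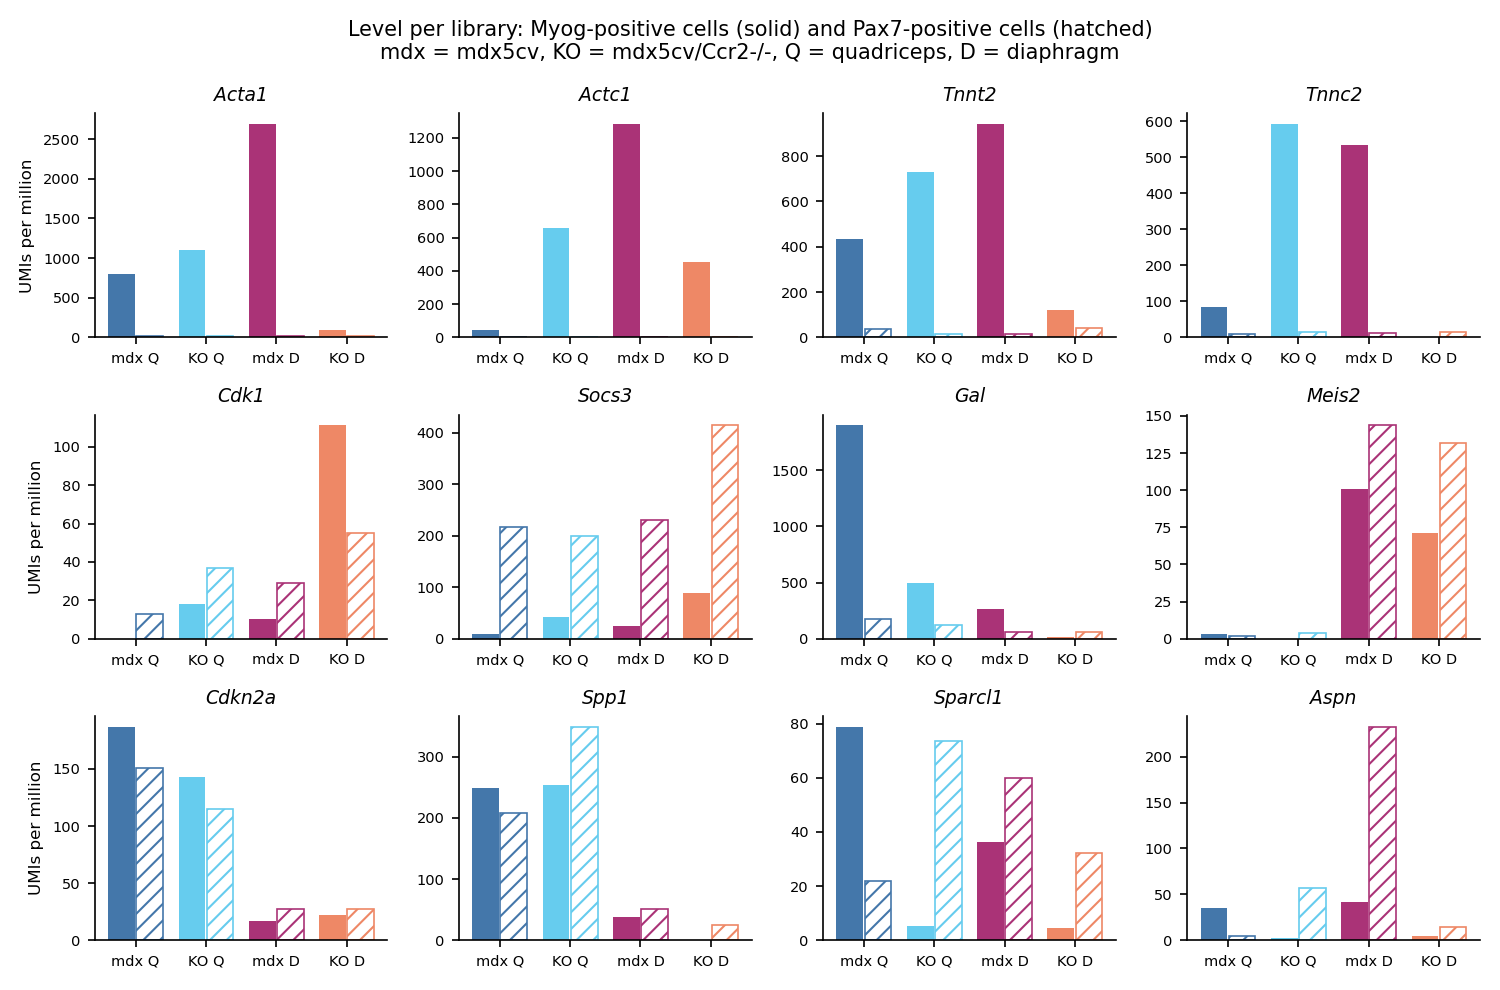
CPM in Myog-positive cells (solid bars) and Pax7-positive cells (hatched bars) of each library for 12 genes, with separate vertical axes starting at 0. Acta1 was at 2692 CPM in the mdx5cv diaphragm and 93.3 CPM in the mdx5cv/Ccr2-/- diaphragm, and Meis2 and Cdkn2a separate the muscles in both cell classes.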

How the data were processed

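The authors deposited 4 filtered 10x matrices of whole-number UMI counts per gene and barcode, 1 per group, with 32285 genes and no normalization. Per the submitters' processing notes, Cell Ranger 6.1.2 and mm10 were used, with the annotation release, intron setting and cell calling "not given in the sources used here". Both the cells and the gene lists were chosen with earlier results of these data known. Raw counts were summed per library and class (Myog-positive, Pax7-positive), and genes with at least 10 UMIs in at least 4 of the 8 sums were tested with edgeR 4.0.16 (TMM, quasi-likelihood, R 4.3.3) with the library as a block, after a check on simulated data. Both classes of a library share its animals and droplets, which is the pairing, and their deviations correlated at 0.161, 0.107, 0.170 and 0.183. The fit has 3 residual degrees of freedom, and p-values measure only the spread between these libraries. An additive genotype fit was not run, with 1 library per group.

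Named genes were the 12 largest called changes each way with at least 50 CPM in the higher class and 1 direction in all 4 libraries, and the 8 largest ratios each way past 2-fold in both contrasts of one kind, of which 1 gene is not reported here. Predicted, sex-linked, haemoglobin and mitochondrial genes were not named from ratios. Further list genes were chosen after their values were seen. Ratios used a pseudocount of 5 CPM. Doublets were scored with Scrublet in scanpy 1.11.5, marking the highest 0.8% per 1000 barcodes, and were kept except in an alternative. Thinning drew 2000 UMIs per cell. Python 3.11.15, scipy 1.17.1 and DESeq2 1.42.0 (as an alternative) were also used. Alternatives covered cell filters, the Myog minimum, exclusion of other cell types, doublets, scaling, the count filter, the pseudocount and leaving out each library.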

Additional observations from a re-analysis of the deposited data

Results flagged for a closer look

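The genotype ratio of the share of Myog-positive cells lay on opposite sides of 1 in the muscles, at 2.78 in the quadriceps and 0.445 in the diaphragm. The median log2 genotype ratio of the 20 measured genes of the sarcomere list also had opposite signs, at 1.16 in the quadriceps and -2.96 in the diaphragm. Each muscle had 1 library per genotype, so neither difference between the muscles was tested.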

How the results depend on the processing

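Each group had 1 library, and 13 cells in 2 of the 4 libraries limit every genotype and muscle ratio. Against Pax7-positive cells, DESeq2 called 540 genes higher and 555 lower, all of them also called by edgeR in the same direction. Leaving out 1 library gave 480 to 1073 genes higher and 606 to 1059 lower, with the fewest without the mdx5cv/Ccr2-/- quadriceps, and 519 and 621 without the mdx5cv diaphragm. Without the library as a replicate block, 990 genes were higher and 993 lower. A fit of only the 2 libraries with over 40 Myog-positive cells, chosen after seeing the data, gave 1245 and 1116. Thinning moved the diaphragm genotype ratio of the share of cells to 0.211, and the share with Mymk or Mymx to 41.7% in the mdx5cv quadriceps and 15.4% in the mdx5cv/Ccr2-/- diaphragm. Requiring 2 Myog UMIs gave a share of 75.7% in the mdx5cv/Ccr2-/- quadriceps.

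Genes past 2-fold higher with Ccr2 lost in both muscles numbered 51 with a pseudocount of 1 CPM and 7 with a minimum of 100 UMIs. Those lower numbered 41 with at least 2 Myog UMIs, 65 with means of per-cell CPM and 10 with the 100 UMI minimum. Diaphragm against quadriceps, those higher in both genotypes numbered 28 under the stricter exclusion and 13 with the 100 UMI minimum, and those lower 52 with per-cell means and 11 with the minimum. The sarcomere medians kept their sign under every alternative run, and the stricter exclusion moved them most in the diaphragm contrasts, to -1.78 by genotype and -0.99 by muscle in mdx5cv/Ccr2-/- mice. Log2 ratios that reversed under the stricter exclusion were those of Fos (-0.49), Cenpf (-3.46) and Aspn (0.85) by genotype in the diaphragm, Sparcl1 (0.35), Bex1 (0.43) and Mustn1 (0.996) by genotype in the quadriceps, and Cenpf (-3.51) and Cdk1 (-0.083) by muscle. With at least 2 Myog UMIs, Cenpf reversed by genotype in the diaphragm (-3.15) and by muscle (-3.27), and Myl9 by genotype in the quadriceps (0.47), as it did without doublets (0.44). The same minimum reversed Acta1 (-0.30), Tnnc2 (-1.81) and Mylpf (-0.80) by genotype in the quadriceps. Other than fewer cells or genes entering, the cause was not tested.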
